A study of Mus musculus with 12 samples.

Results

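The mouse genes whose symbols run from Zfp600 to Zfp999, with or without a final a or b, were followed through LINE1 inhibition and through development from the early 2-cell stage (early 2C) to the 4-cell stage (4C). They were chosen by symbol alone, Zfp750 left out, and 145 of the 23284 genes in the deposited count tables met the rule. Zygotes of C57BL/6J mice (strain label C57/Bl6), from females of 5 to 8 weeks and males of 2 to 6 months, were microinjected with an antisense oligonucleotide (ASO) at 0.75 mM. The ASO was either the one labelled LINE1, after the retrotransposon LINE-1, or the control labelled RC, an abbreviation that the labels do not spell out. Early 2C embryos were taken roughly 33 h past hCG, which is roughly 9 h past injection, and 4C embryos once they had spent 2 days in KSOM medium. The 4 groups, early 2C RC, early 2C LINE1, 4C RC and 4C LINE1, held 3 libraries each, and every embryo of all 4 groups had been injected and cultured. No uninjected embryos were analysed here.

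Most genes in this symbol range encode C2H2 zinc finger proteins, in which repeated fingers read DNA, and many of these carry an N-terminal Krüppel-associated box (KRAB). The KRAB domain recruits TRIM28 (also called KAP1), which brings in the histone methyltransferase SETDB1, heterochromatin protein 1 and DNA methyltransferases, and so represses the bound site. Retrotransposons are the best known targets of this system in the early mouse embryo and in embryonic stem cells. The genes lie in clusters that grew by tandem duplication, so that neighbours are often close copies of each other.

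The coding sequences bore the name out for most members. In GENCODE M21, 142 of the 145 had a coding transcript, with a median of 10 finger matches per protein (quartiles 7 and 13, highest 33), counted with the letters C-X(2,4)-C-X(12)-H-X(3,5)-H. A KRAB A box was found by letter patterns in 94 of them and not found in 48. Zfp783, Zfp862 and Zfp939 had no coding transcript to read. Members with a KRAB A box had a median of 11.5 fingers and those without one 6.5, so the symbol range mixes the KRAB repressors with other proteins. The latter include Zfp644, whose human counterpart works with WIZ and the H3K9 methyltransferases EHMT1 and EHMT2, Zfp622, the counterpart of a human factor for maturation of the large ribosomal subunit, and Zfp828, now called Champ1, which acts at kinetochores. Of the 145, 72 lay in 23 runs of neighbours, separated by at most 2 other protein-coding genes in RefSeq order, and the longest run held 9.

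Promoters are shown for the members called higher in a LINE1 comparison, Zfp866 and Zfp664, and for the neighbouring copies Zfp874a and Zfp874b, of which only the latter was called at 4C. Each is the 250 bases before the RefSeq start (GRCm38.p6, gene strand, 5′ to 3′), with every CG in capitals. Zfp866 lies at chr8:69774912-69775161 on the minus strand, Zfp664 at chr5:124862455-124862704 on the plus strand, Zfp874a at chr13:67451625-67451874 and Zfp874b at chr13:67484254-67484503, both on the minus strand.
Zfp866: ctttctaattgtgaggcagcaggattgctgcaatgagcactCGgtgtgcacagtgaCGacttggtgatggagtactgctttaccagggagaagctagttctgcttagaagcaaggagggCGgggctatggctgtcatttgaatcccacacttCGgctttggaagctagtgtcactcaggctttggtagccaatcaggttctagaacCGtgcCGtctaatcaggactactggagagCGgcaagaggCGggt
Zfp664: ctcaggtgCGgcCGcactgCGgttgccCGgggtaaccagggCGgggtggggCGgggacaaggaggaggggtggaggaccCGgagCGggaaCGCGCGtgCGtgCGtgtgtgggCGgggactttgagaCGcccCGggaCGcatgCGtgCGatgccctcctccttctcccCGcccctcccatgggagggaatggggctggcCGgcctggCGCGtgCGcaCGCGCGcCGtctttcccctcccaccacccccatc
Zfp874a: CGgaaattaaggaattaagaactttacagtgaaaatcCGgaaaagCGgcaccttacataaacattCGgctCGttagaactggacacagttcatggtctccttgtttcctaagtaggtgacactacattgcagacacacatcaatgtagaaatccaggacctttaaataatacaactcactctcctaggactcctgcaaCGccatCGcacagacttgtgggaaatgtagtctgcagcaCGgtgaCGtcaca
Zfp874b: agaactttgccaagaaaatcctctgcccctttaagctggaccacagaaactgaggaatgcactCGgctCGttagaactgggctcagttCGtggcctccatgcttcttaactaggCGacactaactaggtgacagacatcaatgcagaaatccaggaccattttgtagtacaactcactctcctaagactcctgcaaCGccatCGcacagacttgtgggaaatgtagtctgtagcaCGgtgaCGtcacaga
The Zfp664 promoter holds 28 CG, a number reached by 7.26% of the 27025 promoters in the RefSeq table. Zfp866 and Zfp874b hold 8 each and Zfp874a 9, numbers reached by 43.4% and 40.8% of promoters. Zfp874a and Zfp874b share 196 identical bases over 269 aligned columns (72.9%). Over the 125 members with a promoter in the table the median was 9 CG, against 6 over all promoters, and at least 1 CG was present in 100% of the members' windows and in 91.7% of all windows.

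Sequence shared between genes limits what a count can say. Of all 50-base windows in each member's GENCODE transcripts, the length of the reads, the share also found in a transcript of another gene had a median of 0.577% over the 145. It was over 10% for 27 members and over 50% for 6 (Zfp935, Zfp781, Zfp708, Zfp960, Zfp600 and Zfp955a). For Zfp874b it was 13.5% and for Zfp874a 7.79%, each mainly with the other. Annotated genes that overlap a member were not excluded, so a shared window need not come from a copy elsewhere. Reads of such genes may have been split between genes or lost, so their values are uncertain.

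The libraries held 19160716 to 51854939 counts. The members took 0.449% to 0.546% of the counts of a library, and the summed level of the 141 that passed the low-count filter over all libraries is given in CPM, read counts relative to library size as scaled with TMM over all 12 libraries. At early 2C it was 4749 to 5207 CPM in RC and 4951 to 5456 CPM in LINE1, ranges that overlapped. At 4C the lowest RC library stood at 4429 CPM and the highest LINE1 library at 4420 CPM, so that the ranges met without overlapping. The mean sum went from 4649 CPM in RC to 4387 CPM in LINE1, while Zfp644 alone went from 827 to 408 CPM. As shares of raw counts the 4C groups overlapped (0.452%, 0.546% and 0.471% in RC and 0.493%, 0.524% and 0.486% in LINE1). No spike-in is stated, so all values are relative to the other genes of a library, and in these whole embryos fewer cells and less RNA per cell cannot be told apart. Nothing in the labels says that replicates came from separate animals or pools, so a p-value here is set against library-to-library spread only, and that spread may be technical. LINE1 RNA was not analysed here, so no value checks the knockdown. One library stood apart in its group: Dux, a cleavage-stage transcription factor, had 43.0 and 45.8 CPM in 4C LINE1 replicates 1 and 2 but 1.27 CPM in replicate 3, near the 0.0941 to 0.792 CPM of 4C RC.

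The first question was which members differ in level within a stage, per kilobase of exon. At early 2C the median tested member had 1.83 CPM per kb in RC, and the highest 5 made up 36.7% of the summed level per kb. Zfp957 led with a mean of 151 CPM per kb, followed by Zfp655 with 126, Zfp828 with 89.2, Zfp706 with 63.7 and Zfp664 with 58.5 (n = 3 each). The 3 libraries of Zfp957, Zfp655 and Zfp828 did not overlap with those of the next gene in this order, while those of Zfp706 overlapped with those of Zfp664. In 4C RC the median was 2.78 CPM per kb, and Zfp644 (139) and Zfp622 (121) led with overlapping libraries. Zfp820 (52.6), Zfp706 (51.9), Zfp936 (49.0) and Zfp821 (45.4) followed, each overlapping with the next. Only Zfp706, a short protein known for promoting exit from the pluripotent state of mouse embryonic stem cells, was among the first 5 at both stages. Mean levels over 10 CPM were reached by 62 members in early 2C RC and 71 in 4C RC, and 43 passed that level at both.

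**Figure D1:**
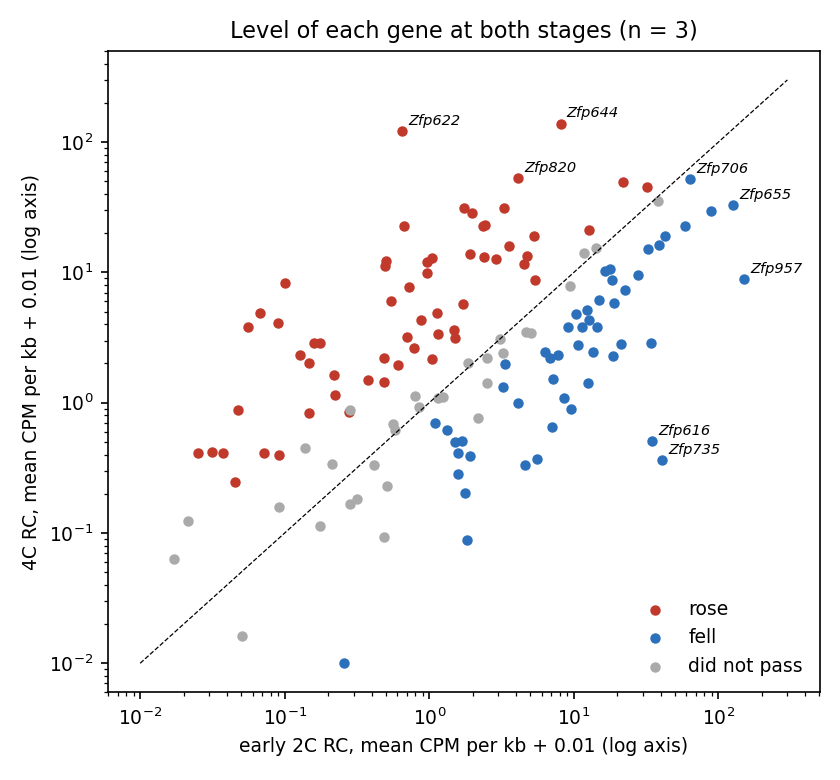
Mean level of each of the 141 tested genes in RC embryos at early 2C (x axis) and 4C (y axis), in CPM per kb of exon plus 0.01, on log axes, over 3 libraries each. Colours give the developmental test, the dashed line marks equal levels, and Zfp957 and Zfp655 lead at early 2C while Zfp644 and Zfp622 lead at 4C.

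The second question was what the LINE1 ASO did to these genes at early 2C. Of 129 members tested, 1 was higher, Zfp866, and 0 were lower, where 0.272% of all 13625 tested genes were higher and 0.0954% lower (edgeR quasi-likelihood test, adjusted p under 0.05). Zfp866, a KRAB zinc finger gene with 12 fingers, had 30.9, 25.7 and 21.8 CPM in the RC libraries and 61.8, 60.0 and 49.1 CPM in the LINE1 libraries. Every LINE1 library thus stood above every RC library. The log2 change was 1.117 (SE 0.15; adjusted p = 0.000997, edgeR), from 26.1 ± 4.55 to 57.0 ± 6.89 CPM (SD, n = 3). The call was lost in 1 alternative, a joint fit of all 12 libraries (adjusted p = 0.112, edgeR; lowest over the alternatives 2.68e-11). Zfp866 was called in each of the 6 fits that left a library out. At 4C its values were 16.6, 23.3 and 18.5 CPM in RC and 30.2, 31.8 and 31.4 CPM in LINE1, without overlap. At that stage 14.4% of all tested genes were higher without overlap. Zfp866 did not pass at 4C (log2 0.61, SE 0.25; adjusted p = 0.158, edgeR), except in the joint fit of 12 libraries, which called it higher there. The difference between the stages did not pass either (interaction -0.45; adjusted p = 0.439, edgeR).

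The other 128 tested members did not pass. Their smallest p-values belonged to Zfp955a (log2 0.40; adjusted p = 0.283, edgeR), Zfp952 (0.38; 0.291), Zfp622 (-1.85; 0.320) and Zfp637 (3.14; 0.324). Zfp955a had 38.4, 39.4 and 42.6 CPM in RC and 55.9, 57.5 and 46.2 in LINE1, groups that did not overlap. Its neighbour and near copy Zfp955b, with the same 250 promoter bases, had 67.1, 58.8 and 58.7 CPM in RC and 75.8, 71.7 and 71.0 in LINE1 (log2 0.24; adjusted p = 0.568, edgeR), also without overlap. Zfp955a shares 51.8% of its windows with other genes, mainly Zfp955b, so these copies are not independent. Without overlap, 7.49% of all tested genes were higher and 6.67% lower, against 10.9% and 3.88% of the tested members. Zfp622 and Zfp637 were near the limit of detection here, with 141 and 5 counts summed over the 3 RC libraries against 49 and 61 over LINE1. At an unadjusted p under 0.05 there were 8 members higher and 1 lower, 6.98% of those tested, against 544 higher and 661 lower over all genes, 8.84%. The median log2 change of the tested members was 0.05, against -0.01 over all tested genes. It was -0.003 without LINE1 replicate 1 and 0.11 without LINE1 replicate 3. The other members of the run around Zfp866 on chromosome 8 did not pass either, with log2 changes of 0.35 (Zfp868), -0.36 (Zfp869), 0.01 (Zfp963) and -0.01 (Zfp964).

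**Figure D2:**
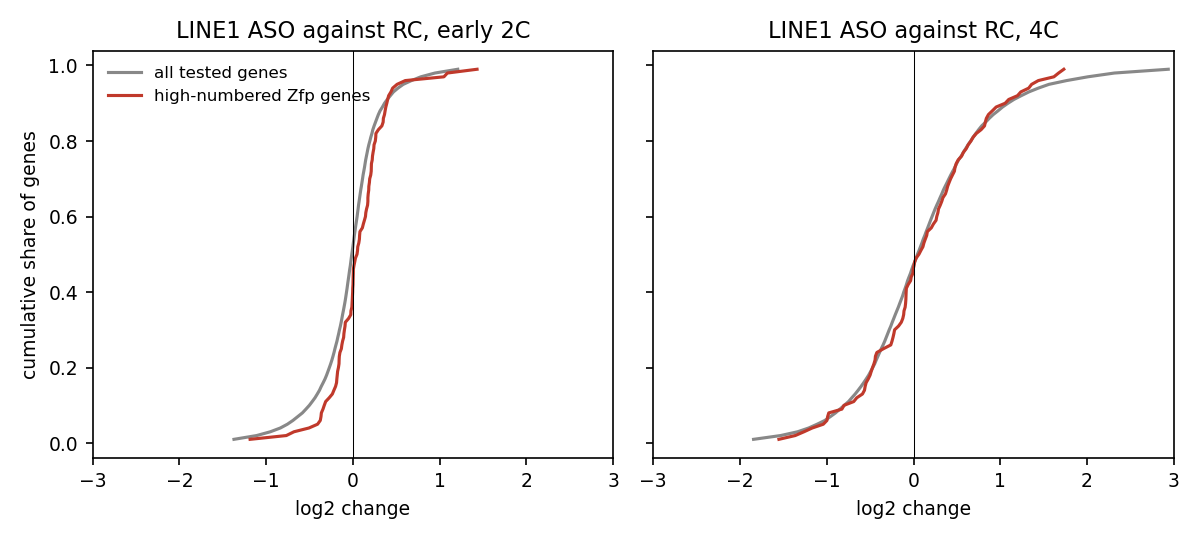
Cumulative share of genes (y axis) by log2 change of LINE1 ASO against RC (x axis) at early 2C and 4C, for the tested members and for all tested genes. The medians are 0.05 against -0.01 at early 2C and 0.06 against 0.05 at 4C, and the 4C curves are the wider ones.

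At 4C, 137 members were tested: 1 was higher, Zfp664, and 3 were lower, Zfp644, Zfp763 and Zfp874b. Among all 14231 tested genes 1.93% were higher and 2.61% lower, against 0.73% and 2.19% of the members, shares that rest on single genes. Zfp644, the most abundant member in 4C RC, had 809, 901 and 770 CPM in RC and 331, 313 and 582 CPM in LINE1. Replicate 3 of LINE1, the library with low Dux, stood nearest to RC (log2 -1.07, SE 0.24; adjusted p = 0.0289, edgeR). Zfp763, a KRAB gene with 13 fingers, had 18.1, 14.96 and 11.0 CPM in RC and 5.50, 6.02 and 4.52 CPM in LINE1. Here replicate 3 was not nearer to RC than the others (log2 -1.53, SE 0.34; adjusted p = 0.0295, edgeR).

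Zfp874b, a KRAB gene with 10 fingers, stood at 30.9, 36.4 and 26.2 CPM under RC against 10.4, 12.4 and 18.2 CPM under LINE1, with replicate 3 again nearest to RC (log2 -1.25, SE 0.29; adjusted p = 0.0344, edgeR). Zfp874a, its copy, had 31.9, 31.7 and 30.1 CPM in RC and 51.0, 37.9 and 25.6 CPM in LINE1, groups that overlapped (log2 0.22, SE 0.25; adjusted p = 0.664, edgeR). The difference between both copies was not tested, and the part of shared reads in it was not tested. Zfp664, a short protein with 9 fingers and no KRAB A box, had 71.0, 104 and 102 CPM in RC and 218, 187 and 119 CPM in LINE1, lowest in replicate 3 (log2 0.85, SE 0.23; adjusted p = 0.0491, edgeR). Zfp808, a KRAB gene with 22 fingers, came next by p and did not pass (log2 -0.99; adjusted p = 0.0591, edgeR), at 22.7, 41.5 and 28.9 CPM in RC against 19.1, 15.4 and 14.7 in LINE1.

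When libraries were left out in turn, each of these 4 calls was lost 5 times out of 6 and held only without LINE1 replicate 3, where 6 members were higher and 8 lower (4.89% and 9.38% of all genes). In the fits that lost them, calls over all genes also dropped, from 274 higher and 371 lower to between 3 and 1 (without RC replicate 1) and 63 and 54 (without RC replicate 3). The log2 changes themselves lay between -1.49 and -0.89 for Zfp644, -1.72 and -1.33 for Zfp763, -1.58 and -1.07 for Zfp874b, and 0.67 and 1.03 for Zfp664 over all alternatives. Summed markers of the 2-cell programme (6 genes, Dux among them) were 52.3 to 107 CPM in 4C RC and 73.3 to 211 CPM in 4C LINE1. Most of the 4C RC sum was Tdpoz4 (37.6, 65.7 and 50.9 CPM), which had 44.3, 53.7 and 48.6 CPM in 4C LINE1. Tdpoz4 had at most 0.648 CPM at early 2C. Zscan4c had 0, 0.423 and 0 CPM in 4C RC and 9.38, 8.71 and 0.217 CPM in 4C LINE1. Summed oocyte markers (8 genes) were 275 to 336 CPM in 4C RC and 356 to 508 CPM in 4C LINE1, without overlap. Singly, Bmp15, Gdf9, Nlrp5, Oosp1 and Padi6 were higher in 4C LINE1 without overlap. Zp1, Zp2 and Zp3 overlapped (Zp3 32.0 to 42.6 CPM in RC and 36.5 to 38.3 in LINE1). The part of both lists in the members' values was not tested. Over all alternatives the adjusted p reached 0.117 for Zfp644, 0.141 for Zfp763, 0.142 for Zfp874b and 0.203 for Zfp664 (edgeR).

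**Figure D3:**
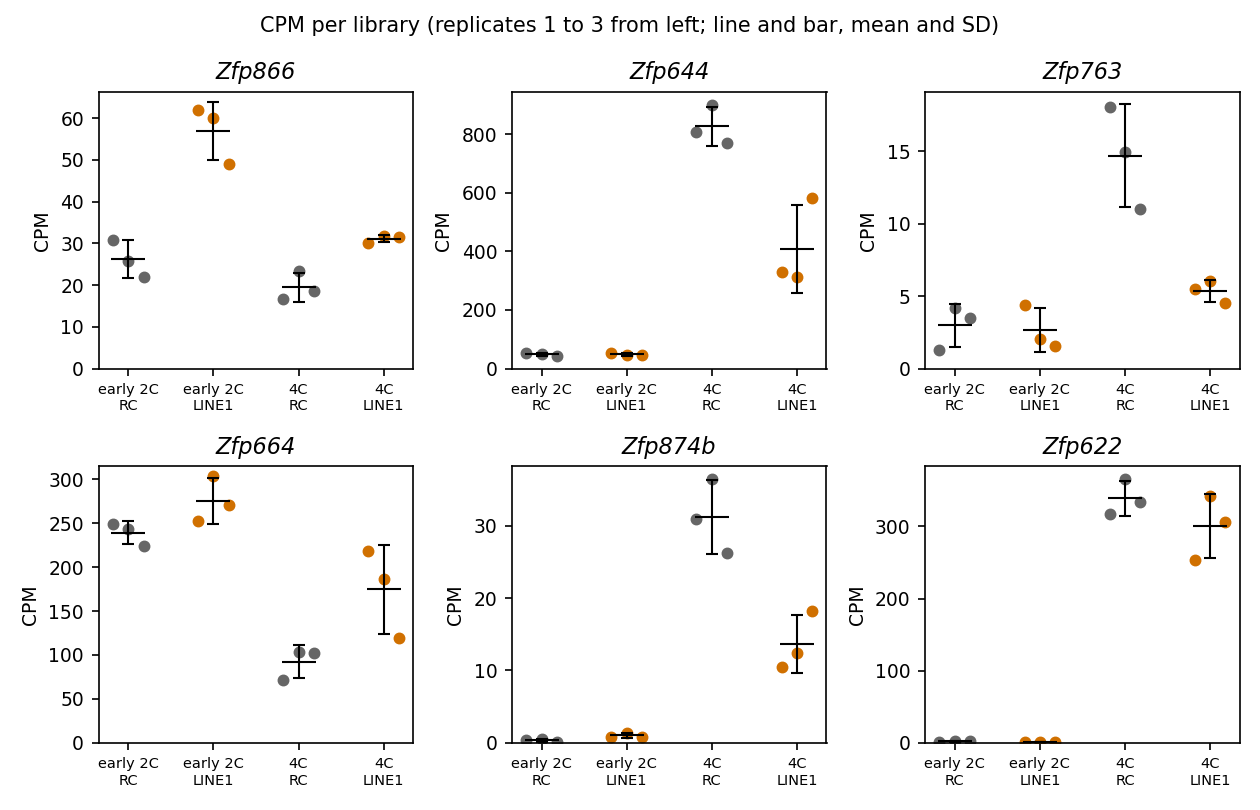
CPM (y axis, linear, from 0, TMM scale of all 12 libraries) of 6 genes with a call in a LINE1 comparison or in the stage by ASO interaction, in each of the 12 libraries by group. Points are replicates 1 to 3 from left to right, the line and bar are the mean and SD (n = 3), and 4C LINE1 replicate 3 stands nearest to 4C RC for Zfp644, Zfp664 and Zfp874b.

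At an unadjusted p under 0.05 there were 15 members higher and 10 lower at 4C, 18.2% of those tested, against 1560 higher and 1596 lower over all genes, 22.2%. The median log2 change was 0.06, against 0.05 over all tested genes, and lay between -0.003 (without LINE1 replicate 3) and 0.11 (without RC replicate 2) when 1 library was left out. KRAB members had a median of -0.01 (0 higher and 2 lower of 91 tested) and members with no KRAB A box 0.26 (1 and 1 of 43). Values are also given for 4 members with a known role in binding or silencing retrotransposons, none of which passed at either stage. Zfp809, which binds the primer binding site of murine leukaemia virus-type proviruses, differed by 0.00 (SE 0.23) at early 2C and 0.09 (SE 0.25) at 4C. Zfp932, which represses endogenous retroviruses of the ERVK group in embryonic stem cells, differed by 0.08 (SE 0.11) and -0.47 (SE 0.22), and Zfp708, which binds RMER19B elements, by 0.07 (SE 0.12) and -0.49 (SE 0.41). Zfp819, a TRIM28 partner of pluripotent cells, differed by 0.00 (SE 0.26) and -0.08 (SE 0.41). Zfp708 shares 94.9% of its 50-base windows with other genes. Zfp600, named with them but here given no role, differed by -0.19 (SE 0.27) and 0.23 (SE 0.25).

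Whether the LINE1 ASO effect differed between the stages was tested as an interaction over the 12 libraries. Of 141 members tested, 1 had a higher log2 change at 4C than at early 2C, Zfp622, and 1 a lower one, Zfp874b. Over all 15760 tested genes the shares were 0.647% and 0.47%. For Zfp622 the log2 change was -1.85 at early 2C and -0.24 at 4C, a smaller decrease. Neither passed in its own stage (adjusted p = 0.320 and 0.461, edgeR). At early 2C, Zfp622 had 0.972, 2.49 and 1.91 CPM with RC against 0.475, 0.604 and 0.420 with LINE1. At 4C it stood at 318, 365 and 334 CPM with RC against 254, 342 and 305 with LINE1. The groups did not overlap at early 2C, at a low level, and overlapped at 4C (interaction 1.69, SE 0.37; adjusted p = 0.0454, edgeR). For Zfp874b the early 2C values were 0.422, 0.476 and 0.114 CPM in RC and 0.777, 1.41 and 0.841 in LINE1 (26 and 95 counts summed over each group). Its log2 change at early 2C was 1.55 (SE 0.81) and did not pass (adjusted p = 0.623, edgeR). Its interaction was -2.74 (SE 0.59; adjusted p = 0.045, edgeR). Of 12 fits without 1 library, 4 kept the call of Zfp622 and 2 that of Zfp874b, and of all 18 alternatives 10 and 7 did.

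The last comparison asked how the same genes move from early 2C to 4C in RC embryos. Most of them changed, in both directions and by similar numbers. Of 141 tested members 59 rose (41.8%) and 51 fell (36.2%), where 36.1% of all 15760 tested genes rose and 36.6% fell, and the members' shares were near this background. Their median log2 change was 0.11, against 0.09 over all genes (-0.03 without 4C RC replicate 2, 0.22 without 4C RC replicate 1), and the middle 50% of them lay between -1.52 and 2.46. Among the 124 with a mean of at least 50 counts the range was -6.87 to 7.55. This comparison shares the 4C RC libraries with the LINE1 comparison at 4C and the early 2C RC libraries with that at early 2C. Summed oocyte markers went from a range of 4096 to 4570 CPM in early 2C RC to 275 to 336 CPM in 4C RC. Of these only Zp3 overlapped between the stages (39.5 to 58.8 CPM in early 2C RC and 32.0 to 42.6 in 4C RC). Summed cumulus markers (8 genes, Inha at 0 in all RC libraries) went from 24.0 to 25.8 CPM to 0.838 to 1.55 CPM. Most of the early 2C sum was Cyp19a1 (21.9, 23.8 and 21.4 CPM), which had at most 0.684 CPM in 4C RC. Each other gene of this list had at most 2.28 CPM, and Amh, Has2, Ptx3 and Tnfaip6 overlapped between the stages. Sperm markers (6 genes) were at most 4.98 CPM and blood markers (5 genes) at most 0.604 CPM in RC. The part of these transcripts in the members' changes was not tested.

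**Figure D4:**
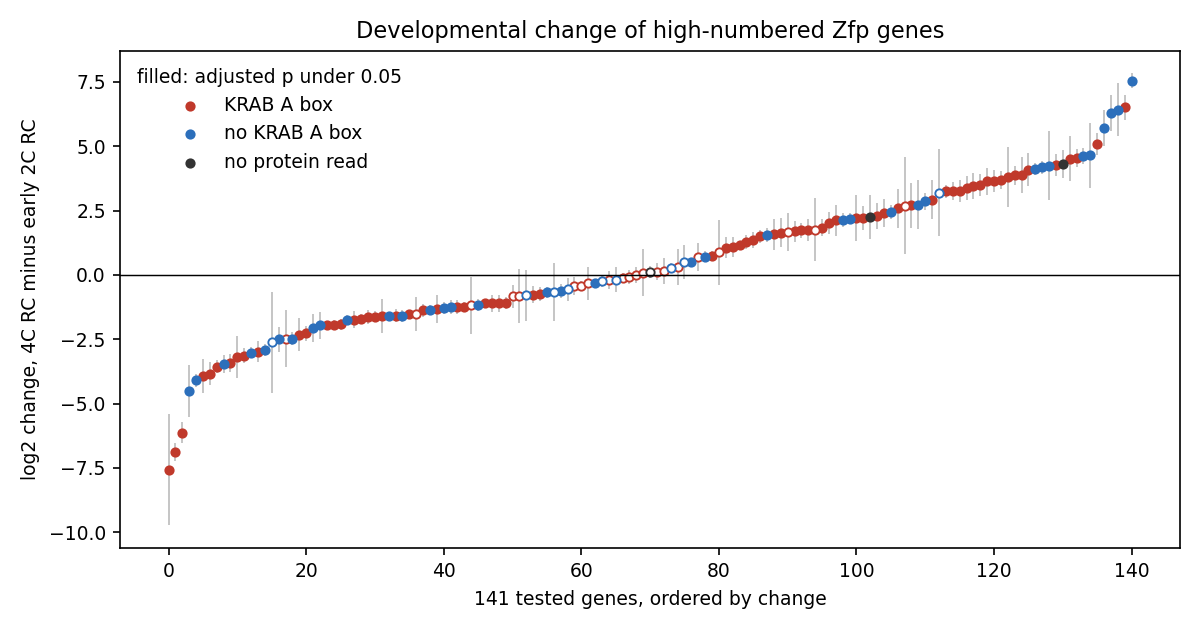
Log2 change from early 2C RC to 4C RC (y axis; bars, 1 SE) of the 141 tested genes, ordered by change (x axis) and coloured by KRAB A box. Filled points passed the test (59 rose, 51 fell), and genes with and without a KRAB A box lie along the whole range.

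The 16 members that rose by a log2 change over 4 included genes close to absent at early 2C. Zfp622, with the values above, had the largest rise among well-counted members (log2 7.55, SE 0.28; adjusted p = 5.46e-12, edgeR). Zfp874b rose from 0.338 ± 0.195 to 31.2 ± 5.10 CPM (log2 6.51, SE 0.49). Zfp644 rose from 53.8, 49.5 and 41.2 CPM to 809, 901 and 770 (log2 4.10, SE 0.23; adjusted p = 2.48e-10, edgeR). All 3 were thus far above their early 2C levels in every 4C RC library. Without overlap, 37.3% of all tested genes and 41.1% of the tested members were higher at 4C. Zfp668 rose from 1.10, 0.00 and 0.496 CPM to 26.5, 24.8 and 30.0 (log2 5.69). Zfp771 rose to 9.13, 3.34 and 9.26 CPM from 6 counts summed over early 2C RC (log2 6.42), and Zfp637 to 3.91, 4.28 and 8.13 CPM from 5 (log2 6.29). Zfp707 (5.09), Zfp800 (4.63), Zfp948 (4.53), Zfp712 (4.51) and Zfp783 (4.30) completed the 10 largest rises among members with a mean of at least 50 counts. Zfp668, Zfp783 and Zfp874b had a mean under 1 CPM in early 2C RC and over 10 CPM in 4C RC.

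Among members with a mean of at least 50 counts, the largest falls were of a pair of KRAB genes on chromosome 11. Zfp735 fell from 154, 152 and 152 CPM to 0.792, 2.31 and 0.845 (log2 -6.87, SE 0.35; adjusted p = 1.14e-10, edgeR), and Zfp616 from 200, 151 and 174 CPM to 1.21, 2.96 and 3.2996 (log2 -6.12, SE 0.42). Zfp957, which led the levels at early 2C and in which neither a KRAB A box nor a finger match was found, fell from 405, 424 and 424 CPM to 21.3, 21.4 and 30.5 (log2 -4.10, SE 0.24; adjusted p = 4.76e-10, edgeR). No early 2C library of these 3 overlapped with a 4C one, and in 4C LINE1 they stood at 1.48 to 2.53, 2.25 to 6.94 and 22.1 to 43.3 CPM. Between the RC groups, 38.7% of all tested genes and 37.6% of the tested members were lower at 4C without overlap. Zfp784 (-4.52), Zfp709 (-3.93), Zfp940 (-3.83), Zfp708 (-3.57), Zfp608 (-3.46), Zfp963 (-3.41) and Zfp964 (-3.20) were the other large falls. Zfp663, named after its values were seen, had 69 counts over early 2C RC and 0 over 4C RC, so that it was at least 17.7-fold lower when the 4C group as a whole is set to 3 counts, and was among the 5 called falls over 4 on the log2 scale. The 10 largest rises and 10 largest falls kept their call in every alternative that tested them, 18 in number, or 17 for Zfp712 and Zfp784, which did not reach the stricter filter.

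Among members with a known role, the directions were mixed. Of those that bind or silence retrotransposons, Zfp809 rose from 6.51, 8.90 and 7.39 CPM to 71.3, 86.6 and 58.4 (log2 3.24, SE 0.26). Zfp708 fell by 3.57 on the log2 scale, and Zfp932 (-0.11, SE 0.19) and Zfp819 (-0.20, SE 0.35) did not pass. Zfp600, named with them but here given no role, rose by 1.74 (SE 0.28), with 81.2% of its windows shared with other genes. Zfp687, whose human counterpart binds ZMYND8, fell by 3.02 on the log2 scale, from 90.8, 76.1 and 92.3 CPM to 8.76, 12.7 and 10.4. Zfp830 (-1.15), also called Omcg1 and needed in the preimplantation mouse embryo, fell less. So did Zfp655 (-1.94), Zfp828 (-1.60) and Zfp664 (-1.37), which were named for their level at early 2C and not for a role. Zfp706 fell by 0.30 on the log2 scale, close to the threshold (adjusted p = 0.0493, edgeR). Zfp746, also called PARIS, a substrate of the ubiquitin ligase parkin, rose by 1.07. Zfp609, a partner of the cohesin loader NIPBL, did not pass (0.26, SE 0.18), nor did Zfp711 (3.19, SE 1.69), a partner of the demethylase PHF8 that had at most 1.61 CPM in any library.

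Both directions were found in every class of protein. Of 93 tested KRAB members, 40 rose and 32 fell (median log2 change 0.14), and of 45 with no KRAB A box 17 rose and 19 fell (median -0.30). By number of fingers, members with 7 or fewer had 11 rises and 20 falls of 39 tested (median -0.68), and those with 14 or more 13 and 12 of 34 (median -0.10). In between, members with 8 to 10 fingers had 17 and 9 of 32 and those with 11 to 13 fingers 16 and 10 of 33. Across 138 members the change and the number of fingers had a Spearman rho of 0.13, and across 121 the change and promoter CG of 0.03, given as descriptions since the points share libraries and, for copies, sequence.

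Neighbours were found that moved together and that moved apart. Of the 23 runs, 7 held both a rising and a falling member, 7 held at least 2 rises and no fall, and 4 at least 2 falls and no rise. The run of 9 on chromosome 17 had 4 rises, led by Zfp948 (4.53) and Zfp820 (3.69), 4 falls down to -2.98, and 1 member that did not pass. On chromosome 13, Zfp808 (3.65), Zfp935 (3.25) and Zfp934 (2.20) rose together, while Zfp712 (4.51) rose beside Zfp708 and Zfp759, which fell. Zfp874a (3.50) and Zfp874b (6.51) both rose, and Zfp955a (-1.59) and Zfp955b (-1.94) both fell. Since copies share windows, agreement between such neighbours is not independent.

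**Figure D5:**
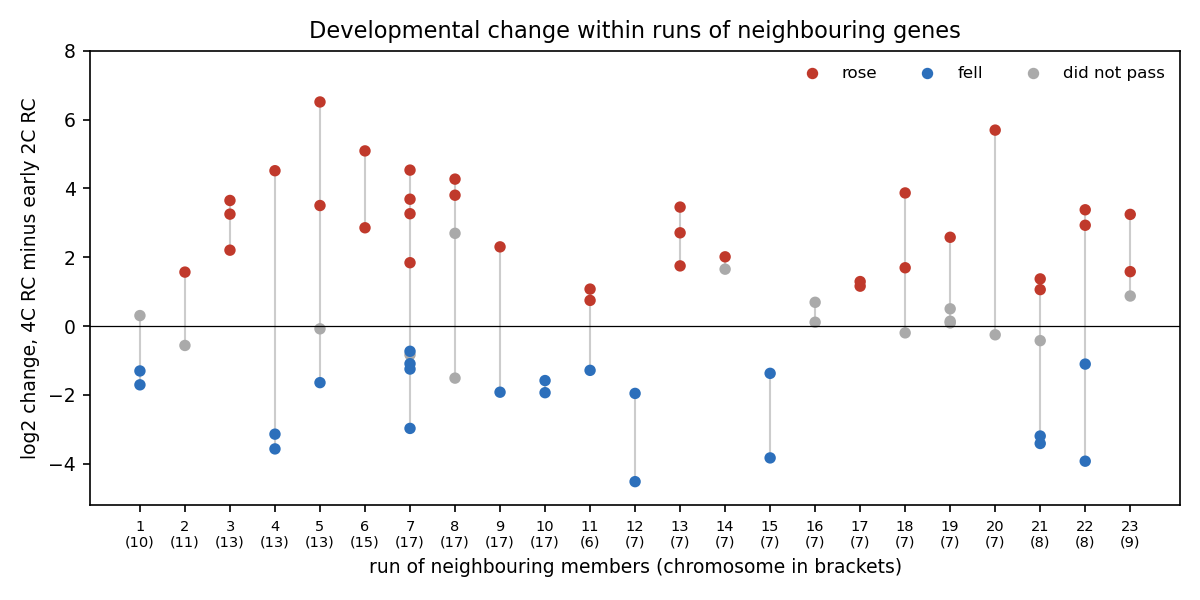
Log2 change from early 2C RC to 4C RC (y axis) of each tested member of the 23 runs of neighbouring genes (x axis, run number with its chromosome). Points are single genes coloured by the test, and 7 runs hold both a gene that rose and one that fell.

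The partners of the KRAB domain and other zinc finger series were counted in the same fits. Over all tested genes, 0.272% were higher and 0.0954% lower at early 2C, and 1.93% and 2.61% at 4C. In development 36.1% of them rose and 36.6% fell. Of 32 listed genes of the TRIM28 pathway, heterochromatin and DNA methylation, 31 had a row and were tested, and the other was not analysed here. Of the 31, 0 were called at early 2C, and 2 were higher (6.45%) and 0 lower at 4C: Dnmt3l (log2 1.23) and Zfp57 (1.09), a KRAB protein that protects imprints. In development 14 of the 31 rose (45.2%) and 16 fell (51.6%), with a median of -0.42. Trim28 (2.85) was among the rises, and Setdb1 (-2.37) and Uhrf1 (-4.29) were among the falls. The heterochromatin protein 1 genes went both ways: Cbx3 (7.01) and Cbx5 (1.49) rose and Cbx1 (-3.28) fell. In the interaction, Cbx1 and Zfp57 had higher log2 changes at 4C than at early 2C (6.45%), where 0.647% of all tested genes did. Of the 215 lower-numbered Zfp genes, which include Zfp57, 0 of 186 were called at early 2C. At 4C, 7 (3.63%) were higher and 5 (2.59%) lower of 193. In development 74 (36.6%) rose and 75 (37.1%) fell of 202 (median -0.12). Zscan, Zkscan and Zbtb genes gave 0 calls of 54 at early 2C, and 4 higher (6.90%) and 3 lower (5.17%) of 58 at 4C. In development 19 (31.7%) of them rose and 26 (43.3%) fell of 60 (median -0.85).

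Members that could not be tested complete the account of the 145. At early 2C 16 were below the low-count filter, at 4C 8 and over all 12 libraries 4, which were Zfp641, Zfp648, Zfp764 and Zfp804a, with means of at most 4.08 counts per library.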

How the data were processed

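Per the labels, embryo RNA (500 pg per library) went into a stranded pico-input kit for total RNA and was sequenced from one end for 50 bases on 2 lanes. The authors deposited raw read counts per gene, 1 table per stage with a column per library, and 0 further columns of values. The build mm9 and, among the tools, TopHat2 2.0.9 and Trim Galore 0.4.0 are listed per the submitters' processing notes, which also list DESeq2 1.12.3. Neither the annotation used for counting nor its strandedness is given in the sources used here, so reads of overlapping genes and of copies may be split or lost.

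Counts were analysed in R 4.3.3 with edgeR 4.0.16 (filterByExpr, TMM, robust quasi-likelihood F-test, Benjamini-Hochberg over all tested genes, threshold 0.05), the SE being the log2 change over the square root of F. Each LINE1 comparison was fitted on the 6 libraries of its stage; development and the interaction used all 12. CPM values printed for libraries and group means use the TMM factors of the 12 libraries except where another scale is named. Depth, 19160716 to 51854939 counts, limits genes with few counts, and floors cover counting error only. The fit was tested on simulated counts.

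The members and lists were chosen with earlier results of these data known. Named members were called ones (at most 12 per direction) and the 5 of smallest p per LINE1 comparison, the 10 largest changes per direction in development with a mean of at least 50 counts, at most 8 per direction in the interaction, the 5 highest levels per stage over its 6 libraries, and a list of genes thought to have known roles, of which 2, Zfp638 and Zfp982, were not analysed here. Neighbours and copies of named members, members of the first places per kb and list genes were added after their values were seen. Fingers and the KRAB A box (either of 2 letter patterns) were read from GENCODE M21 coding transcripts (GRCm38) instead of the planned RefSeq proteins, and the KRAB patterns were set after the data were seen. Symbols matched directly for 142 members and by a synonym for 3. Promoters are RefSeq's, on GRCm38.p6. Alternatives were DESeq2 1.42.0, its size factors, library totals, no filter (1 count), a stricter one (5 CPM in 3 libraries), a replicate block, a joint fit, leaving out each library and, added after the data were seen, removal of a trend with exon length. No 2 replicates agreed within sampling noise (chi-square per degree of freedom 14.7 to 86.8).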

Additional observations from a re-analysis of the deposited data

Results flagged for a closer look

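The LINE1 ASO effect differed between the stages, by the interaction test over the 12 libraries, for 2 of 141 tested members. For Zfp622 the log2 change was -1.85 at early 2C and -0.24 at 4C, neither of which passed, and the interaction was 1.69. Its early 2C levels were at most 2.49 CPM. For Zfp874b the interaction was -2.74, and 11 of 18 alternatives did not call it. Its log2 change was 1.55 at early 2C, on 26 and 95 counts per group, and -1.25 at 4C. The early 2C change did not pass, so a change of sign between the stages is not established. Among all 15760 tested genes 102 had a higher and 74 a lower log2 change at 4C than at early 2C.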

How the results depend on the processing

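In development, counts of members called stayed within 1.5 times the main counts under all alternatives run, with 55 to 59 rises and 45 to 52 falls when 1 library was left out. At early 2C the 1 member called higher remained in every alternative except the joint fit of 12 libraries, which gave 0. At 4C, 1 member was higher and 3 were lower: DESeq2 gave 2 and 8, library totals 2 higher, the joint fit 7 higher and DESeq2 size factors 0 higher. The joint fit called 3 lower and kept 2 of the 4 main calls, Zfp644 and Zfp664, while Zfp763 and Zfp874b were lost. Leaving out 1 library gave 0 to 6 higher and 0 to 8 lower, the highest counts being without LINE1 replicate 3. In the interaction (1 higher, 1 lower) DESeq2 gave 2 and 4, and leaving out 1 library gave 0 to 5 and 0 to 4. Same-numbered replicates deviated together with correlations of -0.03 to 0.09, and differently numbered ones with -0.10 to 0.06. These values cannot decide whether the numbers pair the samples, and the labels do not say so. Over all genes the replicate block gave 582 higher and 922 lower at 4C, and 48 and 32 at early 2C. It gave 5566 and 5704 in development, and 44 and 47 in the interaction. With the replicate block, 2 members were higher and 5 lower at 4C, and 1 was higher and 0 lower in the interaction, Zfp874b being the call lost. The cause of these moves was not tested, beyond the fewer libraries where 1 was left out. Library totals moved the median of all genes from 0.05 to 0.23 at 4C, from 0.09 to 0.28 in development and from 0.19 to 0.33 in the interaction, and every direction printed here holds on the TMM scale. Over all genes the split of higher and lower calls at 4C went from 274 and 371 to 563 and 239 with library totals, and in the interaction from 102 and 74 to 224 and 53 with library totals and to 80 and 109 with DESeq2 size factors. DESeq2 called more genes, 89 higher and 51 lower at early 2C (37 and 13 in edgeR) and 659 and 831 at 4C. Removing the trend with exon length moved the members' developmental median from 0.11 to 0.22. Members called, or of smallest p, kept the sign of that change in every alternative that tested them; values of other named members, some near 0, were not followed. Calls of genes with under about 50 counts are limited by depth.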
